A study of Arabidopsis thaliana with 6 samples.

Results

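The protein genes of the cytosolic large (60S) ribosomal subunit were examined in mature leaves of the Arabidopsis thaliana mutant flpl1 and of wild type Col-0. The genes on Chr1 to Chr5 were taken by 2 gene ontology (GO) terms of the deposited tables, cytosolic large ribosomal subunit and structural constituent of ribosome, leaving out genes that also carry the cytosolic small subunit term. These were 146 of the 32243 listed genes. By the RefSeq annotation, 129 of the 146 encode cytosolic-type proteins of 47 families, 8 encode organelle-type ribosomal proteins and 9 are pseudogenes, so the GO terms hold more than cytosolic proteins. 42 of the 146 lie on Chr1, 26 on Chr2, 42 on Chr3, 15 on Chr4 and 21 on Chr5.

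The flpl1 plants belong to C30-81-as6, a single line made by C-ion irradiation of Col-0 dry seeds. For this line the study reported an additional copy of Chr2, from genome coverage, chromosome counts, flow cytometry and qPCR of DNA. It also reported a translocation between Chr1 and Chr2, a candidate translocation between Chr3 and Chr4, a rearrangement of Chr5 and homozygous mutations in several genes. Col-0, the parent accession, is the wild type without these changes. The libraries came from 3 individual plants of each genotype at the same age. The mutant plants were selected for the phenotype and for their DNA content by flow cytometry. The characters do not segregate in Mendelian ratios, and the copy number of Chr2 in each sequenced plant was not analysed here.

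As background, the large subunit joins amino acids into protein and carries the tunnel through which the new chain leaves. In plants most of its proteins are encoded by small families of paralogues, related copies of one gene that encode a similar protein. Transcripts of these genes are known to be abundant in growing tissue. The proteins are needed in matched amounts, and loss of single paralogues is known to change leaf shape in Arabidopsis. Families are named here by their eukaryotic names (L24, P0), and AT locus numbers name the paralogues.

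Many plant ribosomal protein genes share short promoter elements, the telo box and site II. Within the 250 bases before the annotated gene start, AAACCCTA (telo box) was found on either strand in 52.7% of the 129 cytosolic-type members against 6.2% of all 32033 listed nuclear genes. TGGGCC (site II) was found in 73.6% against 13%, and both in 41.9% against 1.3%. The shares depend on the stretch searched. With the first 50 bases after the gene start included, AAACCCTA was found in 74.4% against 8.2%. TGGGCC was then found in 74.4% against 13.6%, and both in 58.9% against 1.9%. AAACCCTA and TGGGCC can overlap each other by 1 letter at most and were counted separately. Either motif can also overlap its own reverse complement, and each hit was then counted. The percentages are of genes with at least 1 hit and do not depend on this. The promoters of 6 members are shown because these genes mark the ends of the results: the member with the highest and the one with the lowest fold change, and from families L24 and L7 a Chr2 paralogue that rose strongly beside a Chr3 paralogue that rose less or did not pass the test. Sequences are from RefSeq TAIR10.1, 5′ to 3′ on the strand of the gene, and end at the base before the gene start of the deposited TAIR10 tables. Capitals mark AAACCCTA, TGGGCC and their reverse complements TAGGGTTT and GGCCCA.
AT3G28500 (P1/P2 stalk protein, chr3:10681847-10682096, plus strand): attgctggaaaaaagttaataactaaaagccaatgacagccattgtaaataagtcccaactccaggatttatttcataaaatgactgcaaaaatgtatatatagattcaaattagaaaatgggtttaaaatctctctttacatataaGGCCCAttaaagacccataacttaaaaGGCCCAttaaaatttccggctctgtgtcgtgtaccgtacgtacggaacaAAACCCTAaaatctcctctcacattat
AT5G24510 (P1/P2 stalk protein, chr5:8369867-8370116, minus strand): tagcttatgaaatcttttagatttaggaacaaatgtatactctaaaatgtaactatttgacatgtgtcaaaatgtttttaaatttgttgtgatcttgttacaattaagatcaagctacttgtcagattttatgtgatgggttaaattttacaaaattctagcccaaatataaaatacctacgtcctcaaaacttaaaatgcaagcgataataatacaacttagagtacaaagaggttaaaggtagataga
AT2G36620 (RPL24A, chr2:15351901-15352150, minus strand): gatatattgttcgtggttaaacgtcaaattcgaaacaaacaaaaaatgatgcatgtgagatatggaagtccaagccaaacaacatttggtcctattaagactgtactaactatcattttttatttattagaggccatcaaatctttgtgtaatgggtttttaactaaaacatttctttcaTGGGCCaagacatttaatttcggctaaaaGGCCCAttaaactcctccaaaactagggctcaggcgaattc
AT3G53020 (STV1, L24, chr3:19662026-19662275, minus strand): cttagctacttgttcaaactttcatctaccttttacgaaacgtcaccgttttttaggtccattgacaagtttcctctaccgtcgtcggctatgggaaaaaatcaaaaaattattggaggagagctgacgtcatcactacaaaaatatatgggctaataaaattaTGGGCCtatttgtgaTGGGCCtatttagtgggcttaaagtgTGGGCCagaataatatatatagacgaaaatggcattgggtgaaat
AT2G44120 (L7, chr2:18251157-18251406, minus strand): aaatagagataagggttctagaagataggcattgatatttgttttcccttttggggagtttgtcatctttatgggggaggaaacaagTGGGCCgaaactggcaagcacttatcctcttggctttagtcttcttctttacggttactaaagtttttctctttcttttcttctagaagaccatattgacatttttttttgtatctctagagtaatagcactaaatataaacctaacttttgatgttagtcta
AT3G13580 (L7, chr3:4432797-4433046, plus strand): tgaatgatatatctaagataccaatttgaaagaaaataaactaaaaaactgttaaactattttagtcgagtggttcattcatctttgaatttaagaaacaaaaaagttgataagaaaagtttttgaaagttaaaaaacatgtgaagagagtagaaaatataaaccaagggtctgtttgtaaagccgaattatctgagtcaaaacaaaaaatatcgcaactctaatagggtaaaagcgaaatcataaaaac

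The promoter of AT3G28500 held 1 AAACCCTA and 2 TGGGCC, and that of AT5G24510 held 0 of either. RPL24A held 2 TGGGCC and AT3G53020 held 3, so the motifs did not separate this pair. AT2G44120 held 1 TGGGCC and AT3G13580 held 0. Over the tested cytosolic-type members off Chr2, the median log2 fold change between flpl1 and Col-0 was 1.41 for the 45 with both motifs, 1.47 for the 41 with 1 of them and 1.09 for the 12 with neither. The range within the 12 was -1.43 to 2.28, and the 3 ranges overlapped.

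The libraries held 19465078 to 24633070 counts. With edgeR's quasi-likelihood test, 18638 genes were tested, and 19.8% of them were DEGs (adjusted p under 0.05 and at least 2-fold) higher in flpl1 and 14.4% DEGs lower. The median log2 fold change was 0.00 over all tested genes, 0.55 over those on Chr2 and -0.10 over those on Chr1, 3, 4 and 5. Of the leaf markers (RBCS1A, RBCS2B, LHCB1.1, CA1), all 4 were expressed in every library and 3 rose, and their summed FPKM, fragments of transcript scaled by exon length and library total, was 19636 to 25844 in flpl1 against 4383 to 9248 in Col-0. Seed markers were at 0 in every library, meristem markers summed to at most 0.16 FPKM, and the 4 flower markers to 2.40 to 2.95 in flpl1 against 2.18 to 7.38 in Col-0, with AG higher and PI lower in flpl1. The root marker PYK10 fell, from 0.29 to 4.56 FPKM in Col-0 to 0.03 to 0.07.

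The first comparison asked how far the transcripts of the large subunit differed between flpl1 and Col-0. The cytosolic-type members took 2.01, 1.37 and 1.33% of all counts in flpl1 plants 1, 2 and 3, and 0.560, 0.676 and 0.603% in Col-0 plants 1, 2 and 3. The lowest flpl1 plant was above the highest Col-0 plant, and flpl1 plant 1 stood above the other flpl1 plants. The mean share was 1.57% ± 0.381 (SD, n = 3) against 0.613% ± 0.0585 (SD, n = 3), a ratio of 2.57. In bulk leaf RNA, a change in the cells that make up the leaf and a change in RNA per cell cannot be told apart.

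Of the 146 members, 130 passed the low-count filter. 108 of the 130 were DEGs higher in flpl1 and 1 was a DEG lower, against 19.8% and 14.4% of all tested genes. At an adjusted p under 0.05 of any size, 119 were higher and 2 lower, against 30.9% and 30.7%. In scaled counts, 123 members had the 3 flpl1 libraries above the 3 Col-0 libraries, 2 had them below and 5 had overlapping groups, while 34.8% of all tested genes were above and 35.0% below without overlap. The median log2 fold change of the 130 members was 1.47, against 0.00 over all tested genes. Without flpl1 plant 1, the count of DEGs higher in flpl1 was 97, the median 1.28 and the count lower at an adjusted p under 0.05 of any size 3. That last count was 1 without flpl1 plant 2 or 3 or without Col-0 plant 2 or 3.

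Other gene lists of translation were compared in the same fit. Of all tested genes, 19.8% were DEGs higher and 14.4% lower, with 30.9% higher and 30.7% lower at any size. Of 85 tested cytosolic small subunit genes, 70 were DEGs higher and 0 lower (80 higher and 0 lower at an adjusted p under 0.05 of any size by edgeR), with a median of 1.43. Of 16 tested assembly and export factors of the large subunit, 5 were DEGs higher and 0 lower (10 higher and 1 lower at any size), with a median of 0.81. Of 31 tested translation elongation factors, 6 were DEGs higher and 1 lower (14 higher and 6 lower at any size), with a median of 0.28. Their share of DEGs higher, 19.4%, was near that of all tested genes. The 5 tested genes of the mitochondrial large subunit list had a median of 2.07 with 3 DEGs higher, and the 5 of the plastid large subunit list 1.61 with 3 DEGs higher. These lists were not cleared of members, and the highest value of the plastid list, 2.21, is that of the member AT3G25920.

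Markers of dividing cells moved with the members. All 5 tested (CYCB1;1, CYCB1;2, CDKB1;1, CDKB2;1 and KNOLLE) rose, and their summed FPKM was 20.1, 16.7 and 10.3 in flpl1 plants 1, 2 and 3 against 0.90 to 1.11 in Col-0. Of the senescence markers NAP fell, SAG13 and WRKY53 did not pass the test and SAG12 was at 0, with a sum of 11.7 to 26.8 in flpl1 against 108 to 137 in Col-0. The part of dividing cells, leaf cells or leaf age in the result was not tested. The study reported later flowering in flpl1 than in Col-0, and plants of both genotypes were sampled at the same age. Genotype and stage of development thus cannot be told apart in these libraries.

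The second comparison asked whether members on Chr2, the chromosome with the reported additional copy, differed from the rest. All 23 tested Chr2 members were DEGs higher in flpl1, against 32.5% of all tested Chr2 genes. Off Chr2, 85 of 107 were DEGs higher and 1 lower, against 17.4% and 15.6% of tested genes on Chr1, 3, 4 and 5. The median log2 fold change was 2.25 on Chr2 and 1.41 elsewhere. Among the cytosolic-type members it was 1.34 on Chr1, 1.47 on Chr3, 1.42 on Chr4 and 1.58 on Chr5. The small subunit list was also higher on Chr2, with medians closer together than those of the members. All 16 of its tested Chr2 genes were DEGs higher, against 54 of 69 off Chr2, with medians of 1.85 and 1.34. Of the elongation factors, 0 of 4 tested Chr2 genes were DEGs higher, with medians of 0.78 on Chr2 and 0.20 off it. All 4 were nevertheless higher by adjusted p, at log2 fold changes of 0.678 to 0.785 and without overlap of the groups. Off Chr2, 10 of 27 were higher and 6 lower by adjusted p of any size. Of the assembly and export factors, 3 of 4 tested Chr2 genes were DEGs higher, against 2 of 12 off Chr2, with medians of 1.39 and 0.52.

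**Figure D1:**
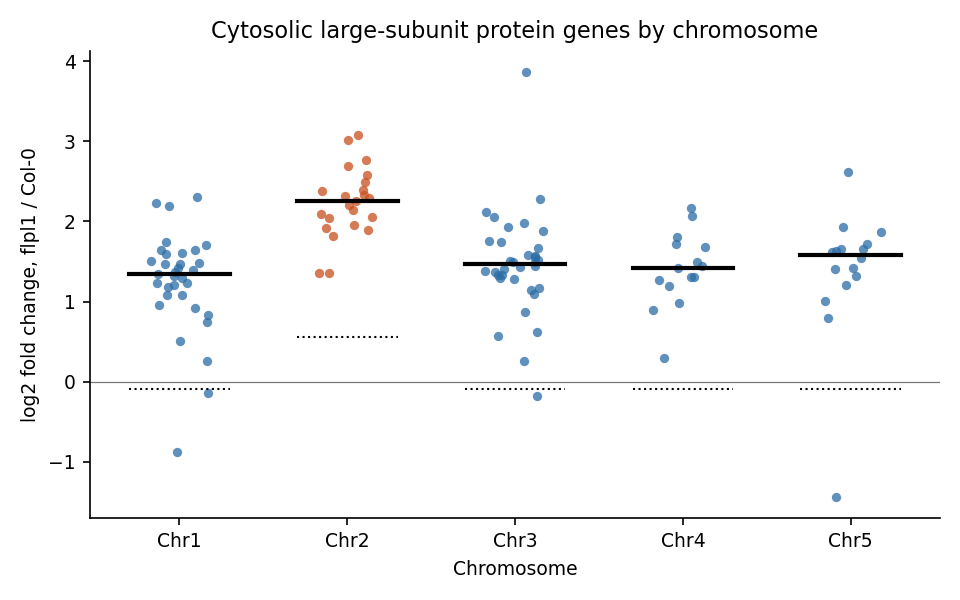
Each point is the log2 fold change (y axis, flpl1 over Col-0) of a tested cytosolic-type member on its chromosome (x axis), solid lines are the members' medians, and dotted lines the medians of all tested genes on Chr2 or on Chr1, 3, 4 and 5. The Chr2 members lie between 1.35 and 3.08, and the members of the other chromosomes between -1.43 and 3.86.

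The same was seen plant by plant. Relative to the Col-0 mean, the median log2 deviation of the Chr2 cytosolic-type members was 2.65, 2.08 and 1.92 in flpl1 plants 1, 2 and 3, and that of the cytosolic-type members elsewhere 1.77, 1.26 and 1.19. Both were highest in plant 1. Their difference was 0.88, 0.82 and 0.73 in the 3 flpl1 plants and -0.02, 0.01 and 0.00 in the 3 Col-0 plants. Over all tested genes, the difference between Chr2 and the other chromosomes was 0.66, 0.66 and 0.64 in the flpl1 plants, and the log2 of a 3 to 2 copy ratio is 0.58. The difference among members varied less across the flpl1 plants (SD 0.07) than the level on Chr2 (SD 0.38) or elsewhere (SD 0.32). Whether it exceeds that of all genes was not tested.

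**Figure D2:**
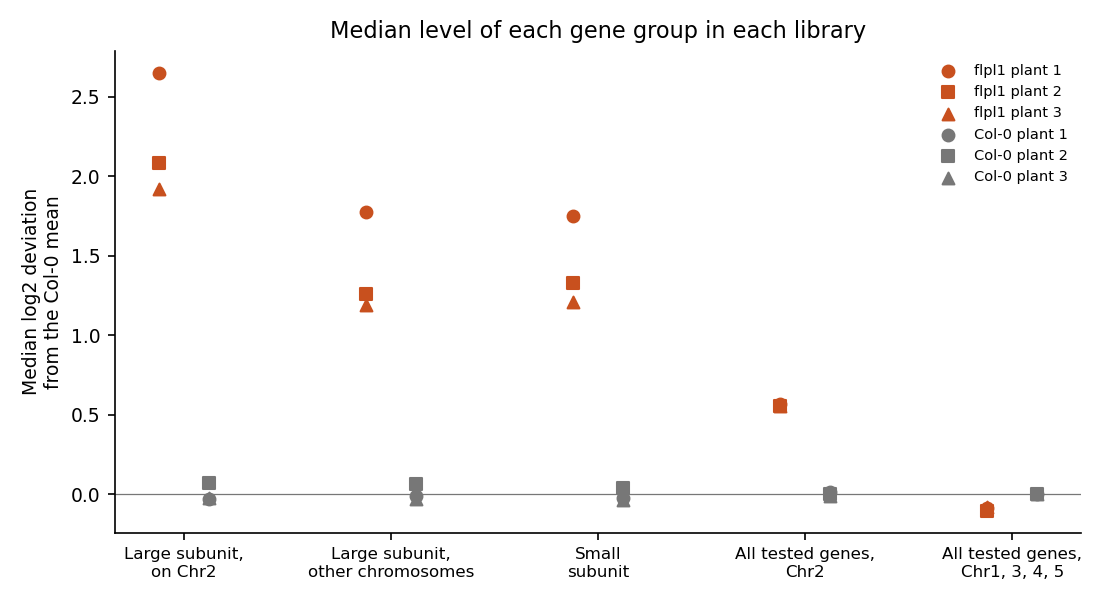
The y axis is the median log2 deviation from the Col-0 mean, the x axis gives 5 gene groups, and each symbol is a library (flpl1 in orange, Col-0 in grey). flpl1 plant 1 is highest for both ribosomal subunits, with 1.75 for the small subunit against 1.33 and 1.21 in the other flpl1 plants, while the medians over all genes hardly differ among the flpl1 plants.

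In FPKM, Chr2 genes supplied 14.5% ± 0.115 (SD, n = 3) of the summed cytosolic-type level in Col-0 and 22.8% ± 0.206 (SD, n = 3) in flpl1. The share was 23.0, 22.8 and 22.6% in the 3 flpl1 plants and 14.3, 14.5 and 14.6% in the 3 Col-0 plants, so the groups did not overlap.

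Comparing paralogues of the same family sets genes named for the same ribosomal protein side by side. Over 124 paralogue pairs, coding sequences were 64.8 to 100% identical along the aligned part, with a median of 84.25%. The lowest value was that of AT2G27710 and AT3G28500. In 20 families, tested members lie both on Chr2 and elsewhere. The log2 ratio of the Chr2 paralogue to the mean of the others was higher in all 3 flpl1 libraries than in all 3 Col-0 libraries in 18 families and lower in 2, with overlap in 0. The median shift was 0.93 and the range -1.68 to 2.26. Over all tested genes, the difference between Chr2 and the other chromosomes was 0.64 to 0.66 in the flpl1 plants. How often such ratios would separate for other Chr2 genes was not counted. With 3 plants against 3 the exact permutation test (two-sided) cannot go below p = 0.1, and each of the 20 families reached 0.1, also after adjustment over the 20.

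The shift was 2.26 in L7, 2.14 in L24, 1.71 in L39 and 1.50 in P0. In L10a it was 0.58 and varied little, with 0.56, 0.59 and 0.58 in flpl1 plants 1, 2 and 3. The exceptions were L31, at -0.45, and the P1/P2 stalk group of AT2G27710, at -1.68, where the paralogue off Chr2, AT3G28500, was the member that rose most of all. In that group the Col-0 plants spread over 1.17, -0.63 and -0.55, and AT3G28500 was at 0.51 to 2.17 FPKM there. AT4G26230, an L31 paralogue on Chr4 that rose by 2.06 on the log2 scale, overlaps a gene on the opposite strand by 18 bp.

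**Figure D3:**
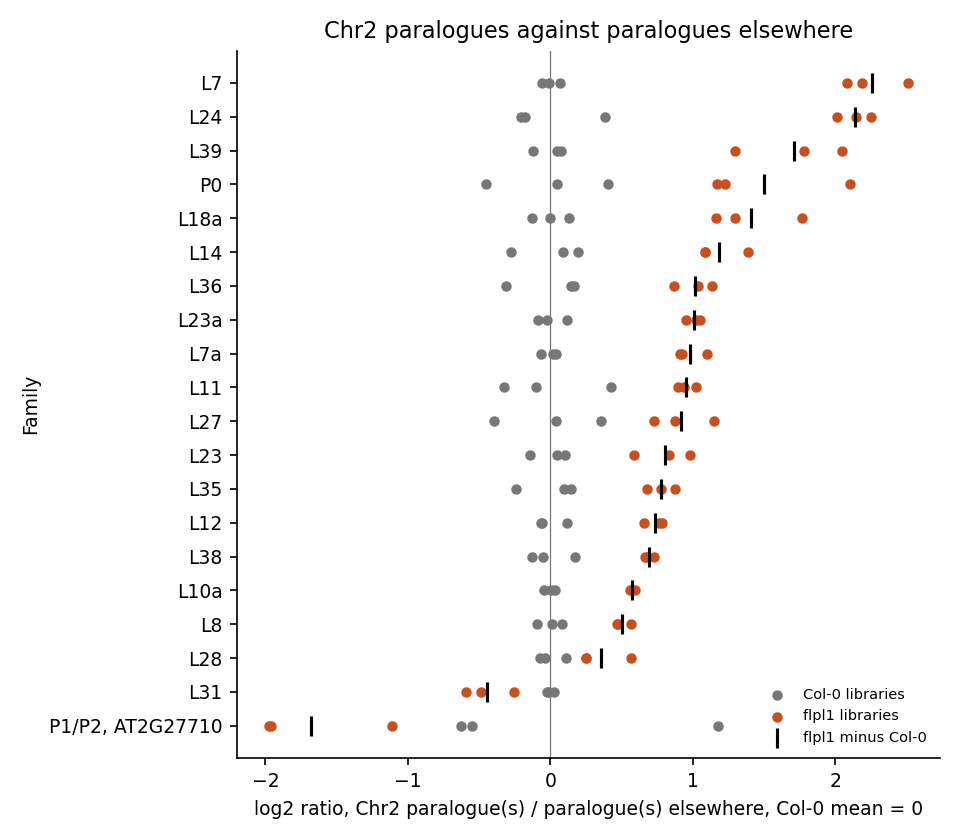
For each of the 20 families (y axis), points are the log2 ratio of Chr2 to other paralogues in each library, with the Col-0 mean set to 0 (x axis), and bars are the flpl1 minus Col-0 difference. In 18 families the flpl1 points lie to the right of the Col-0 points, and in L31 and a P1/P2 group to the left.

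The members are described next by role, starting with the stalk, the flexible arm that binds translation factors. It is built on P0, with L12 at its base and dimers of P1 and P2. Of 13 tested stalk members, 12 were DEGs higher and 1 lower, with a median log2 fold change of 1.93. AT3G28500 (P1/P2) had the highest fold change of all members, with 30.2, 10.8 and 18.3 FPKM in flpl1 against 0.51, 2.17 and 1.94 in Col-0. The groups did not overlap, and the log2 fold change was 3.86 ± 0.54 (SE, edgeR adjusted p = 0.000777).

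AT2G40010, a P0 gene on Chr2, had 10.6, 4.72 and 4.38 FPKM in flpl1 against 0.70, 0.75 and 1.16 in Col-0. Its log2 fold change was 3.08 ± 0.44 (SE, edgeR adjusted p = 0.000874), and it supplied 2.56% of the P0 transcripts in flpl1. Most P0 transcript came from AT3G09200, at 170 to 272 FPKM in flpl1 against 72.1 to 86.7 in Col-0, with a log2 fold change of 1.58.

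The neighbouring P1/P2 genes of Chr2, AT2G27710 and AT2G27720, rose together by 2.25 and 2.29 on the log2 scale. AT2G27720 had 339, 213 and 201 FPKM in flpl1 against 53.6, 63.1 and 54.5 in Col-0. In the other P1/P2 group, AT5G47700 rose by 1.93, AT1G01100 by 1.47 and AT4G00810 by 1.31. AT5G24510 of that group was the only member called a DEG lower in flpl1, with 0.99, 0.43 and 0.69 FPKM in flpl1 against 1.50, 2.80 and 2.23 in Col-0. Its log2 fold change was -1.43 ± 0.44 (SE, edgeR adjusted p = 0.0233) at a low level. The call was lost without flpl1 plant 2 or 3 or Col-0 plant 2 or 3, with an adjusted p of 0.0632 to 0.0824.

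The L12 genes rose strongly, AT2G37190 on Chr2 by 2.69 and AT5G60670 on Chr5 by 2.62, against 1.30 for AT3G53430 on Chr3. AT2G37190 had 252, 184 and 170 FPKM in flpl1 against 33.0, 40.1 and 31.4 in Col-0, and AT5G60670 had 109, 78.1 and 73.2 against 12.8, 21.0 and 13.4. L12 thus held a strongly rising gene on and off Chr2.

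L5 and L11 bind the 5S ribosomal RNA. All 6 tested members were DEGs higher, with a median of 1.68. L5 has no member on Chr2, and AT3G25520 had 375, 257 and 229 FPKM in flpl1 against 66.4, 85.7 and 69.7 in Col-0 (log2 fold change 2.12). Of the L11 genes, the Chr2 gene RPL16A (AT2G42740) rose most, by 2.49, from 4.32 to 5.79 FPKM in Col-0 to 22.3 to 30.9.

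L3, L8 and L10 reach towards the centre where peptide bonds form. Of 7 tested members, 5 were DEGs higher and 2 did not pass the test. L8 on Chr2 (AT2G18020) rose by 1.96, from 88.2 to 111 FPKM in Col-0 to 308 to 450. RPL3B (AT1G61580), the minor L3 gene, had 11.4, 6.37 and 4.82 FPKM in flpl1 against 8.34, 10.5 and 9.11 in Col-0. The groups overlapped (log2 fold change -0.15 ± 0.30, SE, edgeR adjusted p = 0.697), and without flpl1 plant 1 the value was -0.58 with an adjusted p of 0.045.

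The L10 genes differed widely although their coding sequences are 88.1 to 89.5% identical. RPL10B (AT1G26910) rose by 2.19, from 2.59, 3.09 and 2.81 FPKM in Col-0 to 12.1, 11.3 and 11.6 in flpl1, with nearly the same level in the 3 flpl1 plants. SAC52 (AT1G14320), the main gene, rose by 1.20. SAG24 (AT1G66580) had 119, 97.4 and 90.3 FPKM in flpl1 against 78.4, 88.7 and 119 in Col-0, with overlapping groups (log2 fold change 0.25 ± 0.18, SE, edgeR adjusted p = 0.253).

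L4, L17 and L39 line the exit tunnel, and L19, L23a, L26, L31 and L35 lie at its mouth. Of their 21 tested members, 17 were DEGs higher, 19 were higher at an adjusted p under 0.05 of any size and 2 did not pass. RPL23AA (AT2G39460, Chr2), whose loss is known to alter leaf development, had 313, 233 and 220 FPKM in flpl1 against 41.2, 56.9 and 44.5 in Col-0. Its log2 fold change was 2.58, against 1.57 for its paralogue RPL23AB (AT3G55280) on Chr3. L35 on Chr2 (AT2G39390) rose by 1.92 and L31 on Chr2 (AT2G19740) by 1.36.

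In L39, AT2G25210 on Chr2 had 131, 86.6 and 74.5 FPKM in flpl1 against 19.2, 24.5 and 21.7 in Col-0 (log2 fold change 2.32). AT4G31985 rose by 1.31. AT3G02190 had 20.6, 18.02 and 25.8 FPKM in flpl1 against 18.9, 32.4 and 30.5 in Col-0, so that the groups overlapped (log2 fold change -0.18 ± 0.20, SE, edgeR adjusted p = 0.458). The L26 genes, at AT3G49910 and AT5G67510, were among the most alike pairs, at 1.52 and 1.32.

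L19 changed least as a family. Its main gene AT1G02780, the most highly expressed cytosolic-type member in Col-0, had 509, 353 and 348 FPKM in flpl1 against 244, 287 and 275 in Col-0 (log2 fold change 0.74). AT4G02230 had 128, 109 and 120 FPKM against 108, 111 and 104, and did not pass the test (log2 fold change 0.29 ± 0.12, SE, edgeR adjusted p = 0.0693).

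L24 lies at the face that meets the small subunit. RPL24A (AT2G36620, Chr2) had 280, 179 and 162 FPKM in flpl1 against 29.8, 27.8 and 27.1 in Col-0. It rose 8.12-fold (log2 fold change 3.02 ± 0.24, SE, edgeR adjusted p = 0.000118). Its Chr3 paralogue AT3G53020 (STV1, known for its part in carpel patterning) had 256, 176 and 175 FPKM against 99.4, 139 and 133 (log2 fold change 0.87). The 2 coding sequences are 85.0% identical. RPL24A supplied 18.9% of the L24 transcripts in Col-0 and 50.3% in flpl1.

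In L7, both Chr2 genes rose, AT2G01250 by 2.33 and AT2G44120 by 2.77. AT2G44120 had 149, 97.3 and 96.8 FPKM in flpl1 against 16.8, 21.4 and 18.1 in Col-0. AT3G13580 on Chr3 had 43.4, 35.4 and 36.2 FPKM against 33.1, 41.3 and 32.8, and did not pass the test (log2 fold change 0.25 ± 0.13, SE, edgeR adjusted p = 0.125). With centring on the genes outside Chr2 it did pass, at 0.35 and an adjusted p of 0.0455.

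In L18a, AT2G34480 on Chr2 rose by 1.89 and AT3G14600 on Chr3 by 1.09, while RPL18AA (AT1G29970) had 7.33, 6.85 and 9.28 FPKM in flpl1 against 15.0, 15.9 and 16.9 in Col-0. Its log2 fold change was -0.88 ± 0.14 (SE, edgeR adjusted p = 0.00119), the second of the 2 members that fell. It overlaps AT1G29965 on the same strand by 1112 bp, with 629 bp of transcript at 100% identity, and AT1G29965 rose by 1.09. Reads of these 2 genes cannot be told apart over that stretch, so their values are uncertain.

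**Figure D4:**
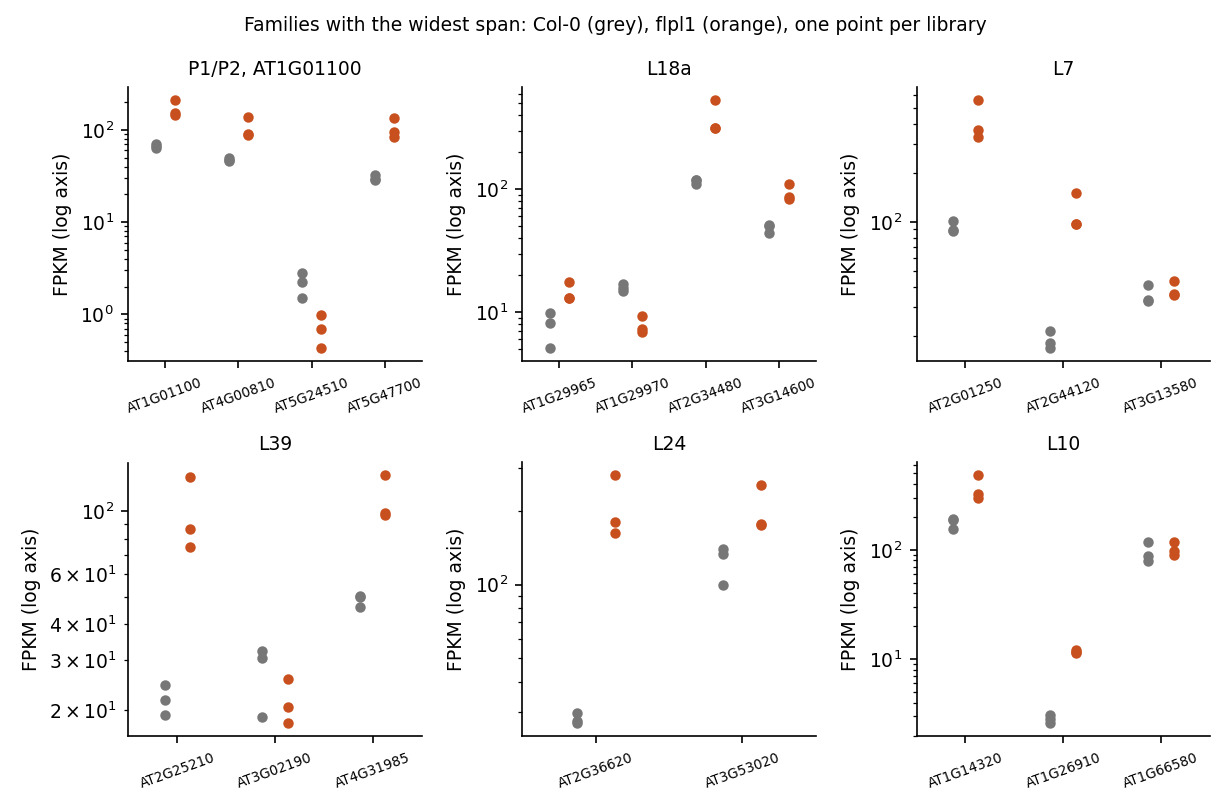
FPKM on a log y axis of every tested member (x axis) of the 6 families with the widest span of fold changes, one point per library, Col-0 in grey and flpl1 in orange. In each family at least 1 paralogue rises clear of its Col-0 points and at least 1 overlaps, falls or rises less, such as AT3G13580 in L7.

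The remaining Chr2 members all rose. The L36 gene AT2G37600 rose by 2.39, the L7a gene AT2G47610 by 2.38, the L14 gene AT2G20450 by 2.21, the L27 gene AT2G32220 by 2.15 and PGY1 (AT2G27530, L10a) by 2.10. PGY1, known for its part in leaf polarity, had 390, 270 and 247 FPKM in flpl1 against 68.7, 88.7 and 79.4 in Col-0. L28 (AT2G19730) rose by 2.06, L38 (AT2G43460) by 2.04 and L23 (AT2G33370) by 1.81. The L24-like gene AT2G44860, which did not align with L24 coding sequences and overlaps a gene on the opposite strand, rose by 1.35. PGY2 (AT1G33140, L9), chosen after its values were seen because it is also known for leaf polarity, rose by 1.31 off Chr2. Its transcript is 95.5% identical to that of AT1G33120 over 849 bp, so its value is uncertain.

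Spans within families were taken with Chr2 members included. Over the 44 families with 2 or more tested members, the span between the highest and the lowest log2 fold change had a median of 0.96 and ran from 0.13 to 3.37, and it was at least 0.5 in 35 families and at least 1 in 20. The 3 narrowest families lay wholly off Chr2 among tested members: L18 (AT5G27850 at 1.63 and AT3G05590 at 1.50), L13 (AT3G49010 at 1.56 and AT5G23900 at 1.41) and L26. The widest were the P1/P2 group of AT1G01100, L18a, L7, L39, L24 and L10, chosen for their span and so given without a test. AT3G04400 (L23), with the second highest FPKM of the cytosolic-type members in Col-0 (175, 214 and 180, against 328, 227 and 233 in flpl1), had a log2 fold change of 0.62 with an adjusted p of 0.0181 by edgeR. The call was lost without Col-0 plant 3 (0.57, adjusted p = 0.0695), with library totals only (0.47, adjusted p = 0.0578) and in both limma fits (0.45, adjusted p = 0.0597 and 0.0599).

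In 8 families the paralogue with the highest mean FPKM differed between the groups, and in 4 of these the leading gene in flpl1 was on Chr2. These were L24, L12, L10a and L38. The lead by mean did not hold in every plant. In L24, AT3G53020 still led in flpl1 plant 3, with 51.9% against 48.1%. In L12, AT2G37190 and AT3G53430 were nearly equal in flpl1 plant 1, at 41.2% and 41.0%. In L6, also among the 8, the flpl1 leader AT1G18540 was already above AT1G74050 in Col-0 plants 2 and 3. Its shares there were 35.1% against 34.7% and 36.1% against 31.5%. In L38, AT2G43460 supplied 42.6% in Col-0 and 54.5% in flpl1. In L12 the share of AT3G53430 went from 62.4% to 38.6%. In L35a, AT1G41880 led in flpl1, and its transcript is 97.1% identical to that of AT3G55750 over 453 bp, so that division is uncertain.

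The transcripts of each family were then summed, as paralogues are named for the same ribosomal protein. The sum was higher in all 3 flpl1 libraries than in all 3 Col-0 libraries in each of the 47 families. Of all tested single genes, 34.8% were above without overlap in scaled counts. The share among sums of other gene families was not counted. Over the 47 families, the median log2 ratio of the sums was 1.34 and the range 0.57 to 2.13. Families with a tested Chr2 member (21) had a median of 1.44 and those without (26) 1.26. Single cytosolic-type genes had 2.25 on Chr2 and 1.42 off it, but in the main edgeR fit with TMM scaling. The family sums are scaled by library total only. With library totals only, edgeR gave medians of 2.10 for Chr2 members and 1.26 for members elsewhere. The median of families with a tested Chr2 member minus that of families without was then taken relative to the Col-0 mean. It was 0.15, 0.20 and 0.18 in the 3 flpl1 plants and -0.01, -0.01 and 0.01 in the 3 Col-0 plants.

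The lowest ratios were in L19 (0.57), L10 (0.78) and L23 (0.83). L19 summed to 592 ± 121 FPKM in flpl1 against 395 ± 25 in Col-0 (SD, n = 3). The highest were in the P1/P2 group of AT2G27710 (2.13), L23a (2.10) and L7 (1.93), each supplied mainly from Chr2. L5 and L37a reached 1.75 and 1.73 without a Chr2 member.

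**Figure D5:**
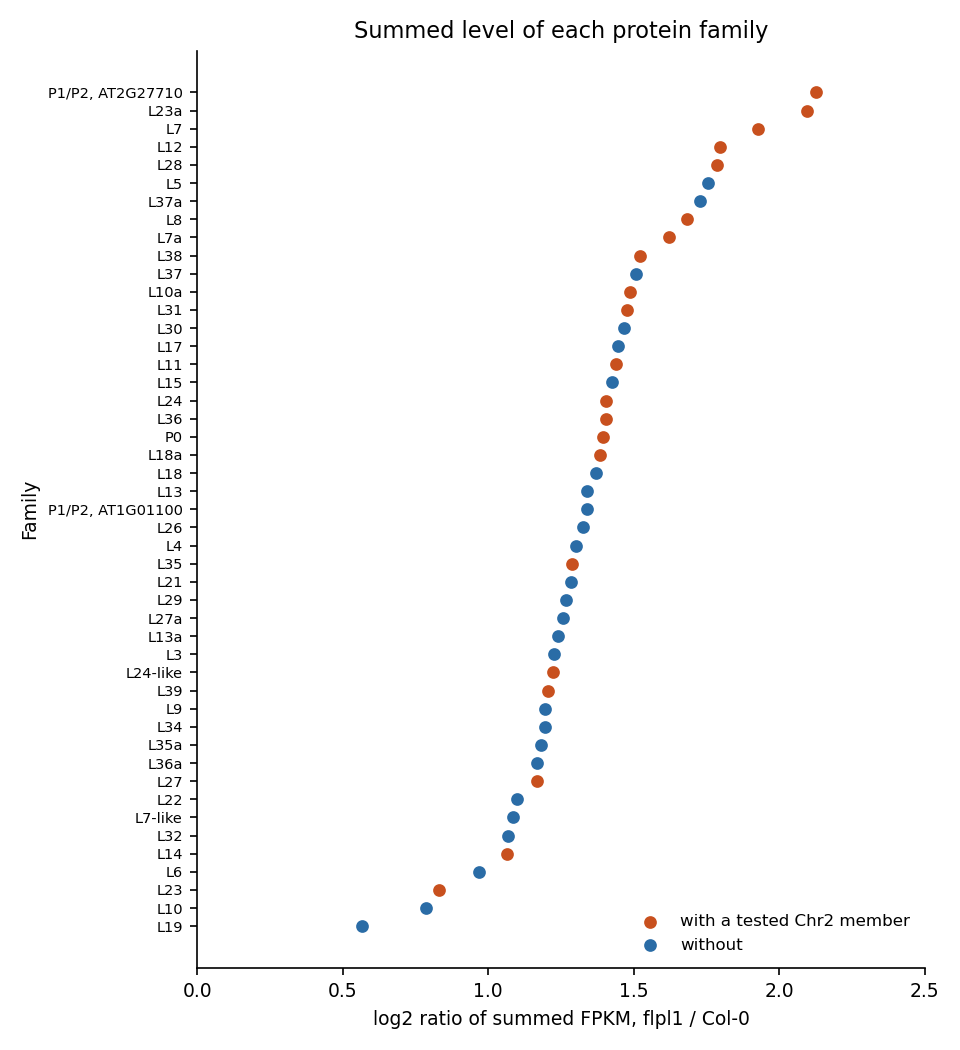
The log2 ratio of summed FPKM, flpl1 over Col-0 (x axis), for the 47 cytosolic-type families (y axis), in orange with a tested Chr2 member and in blue without. All ratios are above 0, from 0.57 in L19 to 2.13 in a P1/P2 group.

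The organelle-type members were fewer and mixed. Of 6 tested, 4 were DEGs higher: PRPL11 (AT1G32990) by 1.39, EMB1473 (AT1G78630) by 1.27, AT3G25920 by 2.21 and AT3G54210 by 1.44. EMB3126 (AT3G63490), a nuclear gene for an organelle-type protein, was among the 3 members with the highest FPKM in Col-0. It had 327, 223 and 185 FPKM in flpl1 against 244, 228 and 220 in Col-0. The groups overlapped (log2 fold change 0.23 ± 0.24, SE, edgeR adjusted p = 0.424). AT5G09770 had 28.8, 22.4 and 21.5 FPKM against 19.03, 29.1 and 25.04. Of the 3 tested pseudogenes, AT1G09486 rose by 1.01, and it shares near-identical sequence with the L21 gene AT1G57660. AT1G31355 and AT5G42445 did not pass.

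16 members did not pass the filter and were not tested. 8 of them had 0 counts in every library: AT1G12960, AT1G36240, AT1G58010, AT2G24730, AT3G10950, AT3G51190, AT5G40130 and AT5G51610. The other 8 (AT1G02830, AT1G35200, AT2G07725, AT2G47570, AT3G48130, AT3G48960, AT3G57820 and AT5G40040) had at most 6 counts over the 6 libraries. Of the 16, 8 are cytosolic-type genes of families with expressed paralogues, so no family lacked transcripts. At this depth their expression was not detectable or not measurable in leaf.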

How the data were processed

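RNA of mature leaves from 3 flpl1 and 3 Col-0 plants was sequenced as paired-end reads, 1 library per plant. Per the submitters' processing notes, reads were trimmed with cutadapt 1.9.1, aligned to TAIR10 with HISAT2 and counted with HTSeq 0.6.1. The deposited counts are raw numbers per gene. The deposited FPKM of the authors divides the count by exonic size and library total, and 100% of values were within 0.01 of that. The strand setting and the treatment of reads shared by overlapping or near-identical genes are not given in the sources used here, and 14 members hold a stretch of at least 150 bp that is 95% or more identical to another gene. Library totals were 19465078 to 24633070 counts, so counting error matters only for genes with few counts.

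Counts were tested with edgeR 4.0.16 (R 4.3.3): TMM scaling, filterByExpr, quasi-likelihood test and Benjamini-Hochberg adjustment over 18638 genes. Steps were tested on simulated data. Levels per library are log2 counts scaled by library size (prior count 0.5). The alternatives were DESeq2 1.42.0, limma 3.58.1 on log2(FPKM + 1) or log2(FPKM + 0.1), other scalings, filters, a replicate block and leaving out each library. Families came from RefSeq products and coding sequence matches (BLAST 2.17.0). Figures used Python 3.11.15 with matplotlib 3.10.9. 31545 of the listed genes were found in RefSeq TAIR10.1.

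The members and lists were chosen with earlier results of these data known. Named were all Chr2 members, the 6 highest and 6 lowest fold changes, DEGs lower in flpl1, untested members, the 6 widest and 3 narrowest families and the 3 highest levels in Col-0. Further members were named after their values were seen, as examples of a role, family or type: AT3G09200, AT3G25520, AT3G53430, AT4G26230, AT4G02230, AT3G55280, AT3G55750, AT1G33120, AT1G33140, AT1G41880, AT1G57660 and, of the organelle-type members and pseudogenes, AT1G09486, AT1G31355, AT1G32990, AT1G78630, AT3G25920, AT3G54210 and AT5G42445. Protein sequences were not used here.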

Additional observations from a re-analysis of the deposited data

How the results depend on the processing

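The 15 alternatives left the rise of the members in place. Leaving out 1 library at a time gave 97 to 111 DEGs higher, 0 to 1 lower, 116 to 120 higher and 1 to 3 lower at an adjusted p under 0.05 of any size. It gave member medians of 1.28 to 1.59, Chr2 medians of 2.01 to 2.39, medians elsewhere of 1.19 to 1.53 and differences between them of 0.82 to 0.90. The single DEG lower, AT5G24510, became 0 with limma on log2(FPKM + 1), with the stricter filter (mean FPKM 5 or more) and with the block, and 2 with library totals only and with limma on log2(FPKM + 0.1). With that filter 1 member was lower at any size, as AT5G24510 was not tested. Limma on log2(FPKM + 1) gave a Chr2 median of 1.97 and a difference of 0.75. Library totals only moved the median of all tested genes to -0.15, limma on log2(FPKM + 1) to -0.12 and on log2(FPKM + 0.1) to -0.14, and the member median was 1.33, 1.29 and 1.30.

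Of 50 named tested members, 44 kept direction and side of the threshold under every alternative that could be computed. The sign changed for AT1G61580 without flpl1 plant 3 (0.11, against -0.58 and past the threshold without plant 1), for AT3G63490 without flpl1 plant 1 (-0.037, against 0.42 without plant 3), and for AT5G09770 with library totals only (-0.0087), limma on log2(FPKM + 1) (-0.0008) and on log2(FPKM + 0.1) (-0.0005), none past the threshold. AT3G04400 was no longer past it with library totals only, with either limma fit or without Col-0 plant 3 (adjusted p 0.0578 to 0.0695). The difference of AT3G49010 minus AT5G23900 (L13) was -0.029 without Col-0 plant 1 and 0.26 without flpl1 plant 3. The causes were not tested.

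The replicate numbers are shared by both groups but are not stated to pair plants. The deviations of same-numbered plants correlated at 0.02, -0.10 and 0.08, so the numbers were not treated as pairs. With the number as a block, 106 members were DEGs higher and 0 lower, and 119 were higher and 1 lower at any size. The block gave a member median of 1.45, a Chr2 median of 2.22, 1.39 elsewhere, a difference of 0.825 and a small subunit median of 1.43.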
